A study of Mus musculus with 9 samples.

Results

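The 39 genes described here code for glycolytic enzymes and for the oxygen-response system of the cell, and were read on microarrays of 3 structures dissected from the embryonic mouse kidney. The list was 20 enzymes of glycolysis and pyruvate use and 19 oxygen sensors, hypoxia-inducible factor subunits and hypoxia-responsive genes, described apart. Members were found by symbol among the 20393 probe sets that the platform annotation pairs with exactly 1 gene, and the brightest on average stood for each gene. This gave 34 of the 39 genes (66 probe sets, of 12394 genes in the series), namely 18 enzymes and 16 oxygen-response genes. Of these, 28 were bright enough to be tested, 16 enzymes and 12 oxygen-response genes.

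All groups were wild-type mouse embryos of strain 129 at E14.5 (Theiler stage 22), sex unknown, and each group had 3 arrays. A new nephron first closes into an epithelial ball, the renal vesicle, which bends into the s-shaped body, where glomerulus and tubule segments appear. Each sample of these structures was a pool of 20. The collecting duct, the branched drainage epithelium derived from the ureteric bud, was sampled with a pool size of 1. Pool size thus went with the structure, and its part in any difference from the duct cannot be told apart. Dissection went by shape, and the submitters checked identity by staining and RT-PCR; total RNA was then amplified in 2 rounds. The labels call each such sample a biological replicate.

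Glycolysis splits glucose into pyruvate in the cytosol. Lactate dehydrogenase can reduce the pyruvate to lactate, or the pyruvate dehydrogenase complex turns it into acetyl-CoA inside the mitochondrion, unless a pyruvate dehydrogenase kinase switches that complex off. When oxygen is plentiful, EGLN prolyl hydroxylases mark the alpha subunits of hypoxia-inducible factor (HIF) and the VHL protein sends them to destruction. When oxygen is scarce the alpha subunit persists, pairs with ARNT and binds hypoxia-response elements, whose core is ACGTG or GCGTG, at genes of glycolysis, mitophagy and oxygen sensing itself. Fetal tissues live at low oxygen, and HIF proteins are known from the developing kidney.

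The sequences of 4 members show what such cores look like beside a start site. They were picked after their values were seen, as members far from the duct in the results that follow. Each run is the 250 bases before the RefSeq start (assembly GRCm38.p6, first start listed), 5′ to 3′ on the gene's strand. Capitals mark ACGTG or GCGTG on either strand.
Bnip3, chr7:138909507-138909756, minus strand: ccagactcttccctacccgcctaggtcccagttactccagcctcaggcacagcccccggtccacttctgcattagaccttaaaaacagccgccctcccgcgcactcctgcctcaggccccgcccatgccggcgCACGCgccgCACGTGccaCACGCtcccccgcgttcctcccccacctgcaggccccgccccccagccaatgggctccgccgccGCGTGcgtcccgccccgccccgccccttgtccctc
Pdk1, chr2:71872974-71873223, plus strand: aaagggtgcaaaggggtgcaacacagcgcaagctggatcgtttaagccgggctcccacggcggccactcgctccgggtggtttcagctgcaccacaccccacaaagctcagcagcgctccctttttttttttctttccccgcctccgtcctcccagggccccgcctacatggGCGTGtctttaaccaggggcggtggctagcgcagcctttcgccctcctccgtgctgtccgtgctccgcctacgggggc
Aldoc, chr11:78322823-78323072, plus strand: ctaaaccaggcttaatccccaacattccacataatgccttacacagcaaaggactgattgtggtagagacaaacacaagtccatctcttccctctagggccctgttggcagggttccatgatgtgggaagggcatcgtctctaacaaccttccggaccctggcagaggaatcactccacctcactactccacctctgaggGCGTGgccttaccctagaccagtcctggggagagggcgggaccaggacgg
Egln3, chr12:54203875-54204124, minus strand: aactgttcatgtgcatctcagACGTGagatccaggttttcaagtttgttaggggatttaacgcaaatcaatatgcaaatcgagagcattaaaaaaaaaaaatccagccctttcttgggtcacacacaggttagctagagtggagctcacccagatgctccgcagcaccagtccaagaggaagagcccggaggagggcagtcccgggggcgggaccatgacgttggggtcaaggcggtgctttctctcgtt
Bnip3 has the palindrome cacgtg, which reads ACGTG on both strands 108 and 107 bases before the start, flanked by GCGTG cores at 117 and 99 and with another at 35. Pdk1 has 1 GCGTG at 78, Aldoc 1 GCGTG at 50 and Egln3 1 ACGTG at 229. Other members were also lower in the renal vesicle than in the duct (adjusted p under 0.05). Of these, Hk1, Aldoa and Tpi1 had neither core in this window, and Pfkl and Ddit4 had at least 1. Hk1 has 2 listed starts and Aldoa 3, and only the window of the first was searched. RefSeq windows were found for 35 of the 39 members, and none was found for Epas1, Ndrg1, Ero1l or Bnip3l. ACGTG stood in 16 of the 35 (45.7%) and in 22.2% of the windows of 6506 genes tested on the arrays. GCGTG stood in 19 (54.3%) against 47%, and either core in 27 (77.1%) against 58.2%; over all 27025 genes with a window the 3 shares were 16.6%, 28.2% and 38.6%. These are matches of letters, counted on both strands, and not measured binding sites.

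Values in every array are given as deposited intensity, which the authors had scaled to a common mean per array, in the order of replicates 1, 2 and 3. Differences are on the log2(intensity + 26) scale after quantile normalization, with the standard error (SE) of limma's moderated test. The adjusted p is by Benjamini-Hochberg over all 7998 genes, and "rose", "fell" or "changed" means an adjusted p under 0.05. Differences are the first-named structure minus the second, and every SE is on the log2 scale. No label says whether replicates came from separate litters, so p-values measure only the spread between these samples. Array medians were 112.2 to 144.8, and 2 arrays correlated at 0.939 to 0.982 within a structure and at 0.77 to 0.868 between structures, across genes. The labelled tissues showed their markers. Of 8 trunk genes of the duct, the summed intensity was 37328 to 50503 in the duct, 2095 to 4003 in the renal vesicle and 1129 to 1223 in the s-shaped body, although Aqp2 (159, 176 and 258 in the duct) and Hoxb7 (105, 161 and 190.2) were dim there. Urothelial Trp63 was also bright in the duct, at 2985, 2756 and 1760.4, and the 5 measured of 6 urothelial genes summed to 2645 to 4104 there, 401 to 567 in the vesicle and 371 to 563 in the s-shaped body. The 6 early nephron genes summed to 8114 to 10323 in the vesicle, 329 to 679 in the duct and 4979 to 5953 at the s-shaped stage, where Wt1 made up nearly all of it (5569, 4529.7 and 5192) and 4 of the 6 were below the array median in every array. Osr1, of the same list, was low in the vesicle (9.15, 4.24 and 7.44) and brighter in the duct (134, 163 and 303). The s-shaped body held markers of many cells. The 4 podocyte genes measured of 6 listed summed to 37509 to 45070 there, 452 and 511 in renal vesicle replicates 1 and 2, 5112 in replicate 3, and 496 to 555 in the duct. The 8 endothelial genes summed to 21910 to 28235 in the s-shaped body, 4757 to 10000 in the renal vesicle, mostly Cldn5, and 290 to 407 in the duct. The 8 interstitial genes gave 7394 to 9532, 1228 to 2048 and 405 to 642, the 5 measured of 6 erythroid genes 18330 to 21977, 435 to 2563 and 82.6 to 2440.3, and the 5 measured of 6 macrophage genes 2969 to 3523, 427 to 661 and 439 to 554. The 12 immediate-early and heat-shock genes were brightest in the duct, at 69608 to 111723, against 45149 to 56151 in the renal vesicle and 29537 to 51508 in the s-shaped body. None of these markers was listed at 0 in any array. In such bulk samples fewer cells of a type and less RNA per cell cannot be told apart.

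The first comparison, renal vesicle against collecting duct, asks how the new nephron epithelium differs from the duct it will join. Of 16 enzymes tested, 1 was higher and 6 were lower in the renal vesicle (median log2 difference -0.34), and of 12 oxygen-response genes 2 were higher and 3 lower (median -0.40). Over all 7998 genes 15.6% were higher and 15.9% lower (31.5% in either direction), and the median was 0.01. Higher genes were 49.6% of all genes called there, and 59.9% under median centring, which moved the median of all genes to 0.11. In s-shaped body against collecting duct, 1 enzyme was higher and 10 were lower (median -0.80), and 4 oxygen-response genes were higher and 4 lower (median 0.09); the shares of all genes were 16.9% and 15.9% (32.8% together), with a median of -0.03. In s-shaped body against renal vesicle, 2 enzymes were higher and 5 lower (median -0.21), and 6 oxygen-response genes were higher and 2 lower (median 0.13), against 18.5% and 17.8% of all genes (36.3% together) and a median of -0.03. The 8 oxygen-response calls between the nephron stages became 4 without renal vesicle replicate 3 or without s-shaped body replicate 2, and 5 without s-shaped body replicate 3. Aldoc, Epas1, P4ha1 and P4ha2 exceeded the array median in 3 or 4 arrays, among them the 3 of the structure where each was brightest. Without them 1 enzyme was higher and 5 were lower of 15 and 1 oxygen-response gene higher and 3 lower of 9 in vesicle against duct. The counts were 1 and 9 enzymes and 3 and 4 oxygen-response genes in s-shaped body against duct, and 2 and 5 enzymes and 4 and 1 oxygen-response genes between the nephron stages. The first 2 comparisons share the duct arrays, so their values are set side by side and not counted as separate support. By mean level the duct was the highest structure for 12 of 16 enzymes (75%) and the s-shaped body the lowest for 11 (68.8%), where 33.4% and 37.1% of all genes had these positions. Counted by arrays that do not overlap, the vesicle stood above the duct in 3 of the 28 members and below it in 13, where 21.2% and 22.1% of all genes did so (43.3% together). The s-shaped body stood above the duct in 5 and below it in 16, against 21.3% and 22.6% (43.9% together). Against the vesicle it stood above in 9 and below in 9, against 26% and 26.9% (52.9% together). Aldoc, Epas1, P4ha1 and P4ha2 are among the 28 in these counts. By mean level the 12 oxygen-response genes were spread: 4 were highest in the duct, 3 in the renal vesicle and 5 in the s-shaped body.

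**Figure D1:**
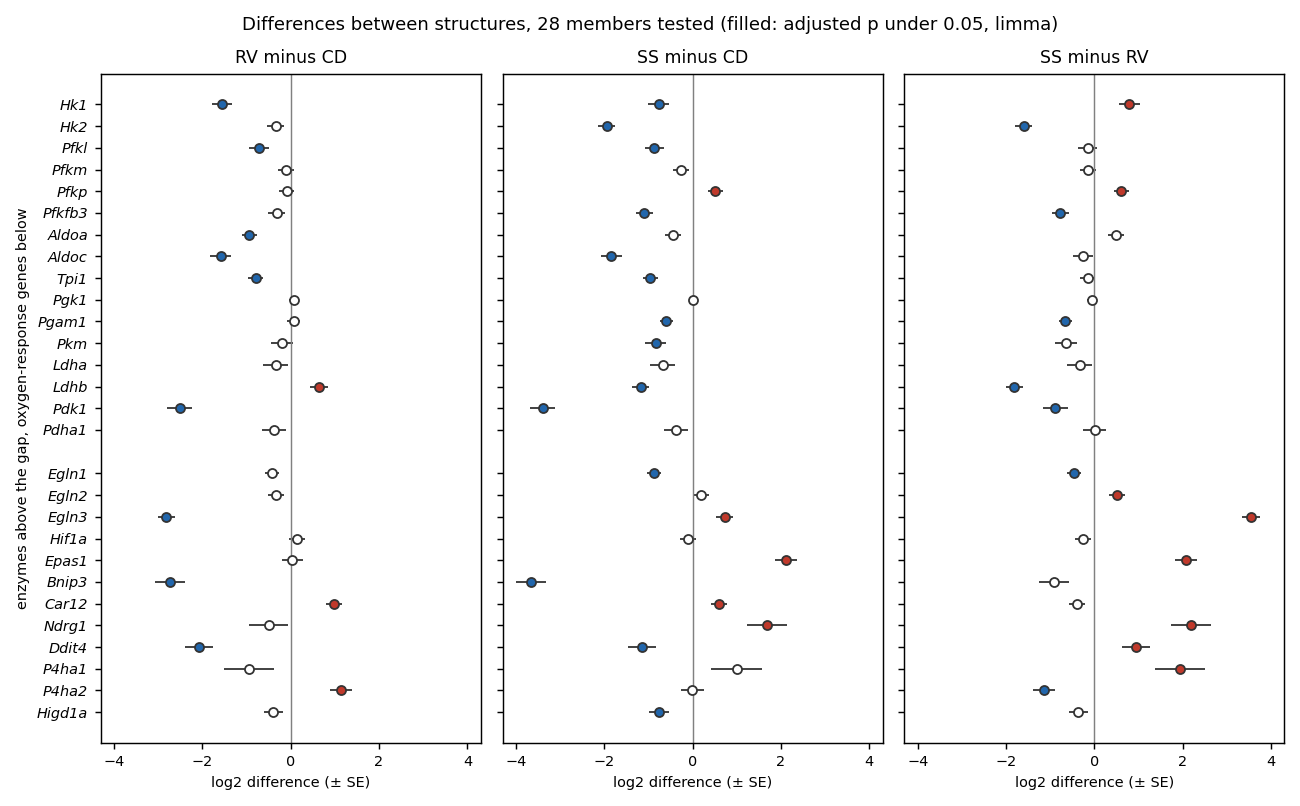
The log2 difference of each of the 28 tested genes in the 3 comparisons (RV renal vesicle, SS s-shaped body, CD collecting duct), with the SE as bars. Filled points have an adjusted p under 0.05 (limma), red for higher and blue for lower in the first-named structure. Pdk1 and Bnip3 lie far to the left in both comparisons with the duct, while Egln3 lies left in the first and right in the other two.

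Entry of glucose into glycolysis begins with hexokinase, and its 2 measured isozymes ranked the structures differently. Hk1, the widely expressed isozyme, read 391, 586 and 311 in the renal vesicle, 682, 899 and 781 in the s-shaped body and 1078, 1398 and 1549 in the duct. No 2 structures overlapped. The renal vesicle was 2.93-fold lower than the duct (log2 difference -1.55, SE 0.23, adjusted p = 0.00032), and the s-shaped body lay between, -0.77 from the duct (SE 0.23, adjusted p = 0.025) and 0.79 from the renal vesicle (SE 0.23, adjusted p = 0.02). Hk2, the inducible isozyme of growing and hypoxic cells, read 1242, 1353 and 1057 in the renal vesicle, 406, 322 and 471 in the s-shaped body and 1454, 1428 and 1773 in the duct. Here the s-shaped body stood apart as the low structure, 3.83-fold below the duct (-1.94, SE 0.19, adjusted p = 6e-06) and 3.04-fold below the renal vesicle (-1.60, SE 0.19, adjusted p = 4.7e-05), while renal vesicle and duct did not pass (-0.33, adjusted p = 0.21). Within each array, Hk1 minus Hk2 was -1.64 to -1.15 in the renal vesicle, -0.43 to -0.03 in the duct and 0.71 to 1.41 in the s-shaped body, so the balance of the pair moved by 2.39 log2 units between the nephron stages without overlap. The call of Hk1 in the s-shaped body against the duct was lost without s-shaped body replicate 1 or 3 or duct replicate 2 or 3 (-0.77 to -0.62, adjusted p 0.062 to 0.093). Against the renal vesicle it was lost without renal vesicle replicate 1 or 3 or s-shaped body replicate 2 or 3 (0.60 to 0.78, adjusted p 0.057 to 0.079).

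Phosphofructokinase makes the committed step, and its 3 isoforms also differed. Pfkp, the platelet isoform, read 325, 309.9 and 374 in s-shaped body arrays, 168, 218 and 183 in the renal vesicle and 216, 234 and 228 in the duct. It was the one enzyme highest in the s-shaped body, by 0.52 over the duct (SE 0.16, adjusted p = 0.028) and 0.61 over the renal vesicle (SE 0.16, adjusted p = 0.011). Pfkl, the liver isoform, read 393, 476 and 655 in the duct, 246, 353 and 238 in the renal vesicle and 268, 252 and 293 in the s-shaped body. The duct was the high structure, 1.64-fold over the renal vesicle (SE 0.22, adjusted p = 0.025) and 1.83-fold over the s-shaped body (SE 0.22, adjusted p = 0.0083). Pfkl minus Pfkp within each array was 0.75 to 1.54 in the duct, 0.33 to 0.60 in the renal vesicle and -0.35 to -0.27 in the s-shaped body, with no overlap. Pfkm, the muscle isoform, read 486, 463 and 516 in the duct, 375, 481 and 436 in the renal vesicle and 444, 331 and 474 in the s-shaped body. It passed in no comparison, although after normalization the s-shaped body lay below the duct without overlap (-0.27, adjusted p = 0.29). Pfkfb3, whose product activates phosphofructokinase, read 268, 239 and 197 in the duct, 150.3, 173 and 161 in the renal vesicle and 108, 84.2 and 90.5 in the s-shaped body. Its s-shaped body arrays were the dimmest of the 3 structures and fell by 1.10 on the log2 scale against the duct (SE 0.19, adjusted p = 0.00075) and by 0.78 against the renal vesicle (SE 0.19, adjusted p = 0.0074). The other probe set of Pfkfb3, below the filter, had overlapping structures in all 3 comparisons. Pfkl in the renal vesicle against the duct was not called with its other probe set (-0.55, adjusted p = 0.11), nor when only those 2 groups were fitted (adjusted p = 0.056), nor without renal vesicle replicate 1 or 3 or duct replicate 2 or 3 (-0.75 to -0.50, adjusted p 0.055 to 0.08). With the other probe set Pfkl was lower in the s-shaped body than in the renal vesicle (-0.75, adjusted p = 0.033; -0.15, adjusted p = 0.63 with the brighter one). Pfkp against the duct was not called without s-shaped body replicate 1 or 3 or duct replicate 1 or 2 (0.45 to 0.54, adjusted p 0.06 to 0.10).

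Aldolase and triose phosphate isomerase, which split the sugar and interconvert its products, were brightest in the duct. Aldoc, the brain-type aldolase, read 432, 382 and 387 in the duct, 104, 72.5 and 147 in the renal vesicle and 98.9, 112 and 75.8 in the s-shaped body. Every duct array was far above every nephron array, and the folds were 3 over the renal vesicle (SE 0.23, adjusted p = 0.00027) and 3.58 over the s-shaped body (SE 0.23, adjusted p = 5.4e-05). Aldoc exceeded its array median in 4 arrays, among them all those of the duct, so it passed the filter through the duct. Under the alternatives that gave a value, no filter among them, the adjusted p were at most 0.0016 and 0.00044. Aldoa, the main aldolase of embryonic tissue, read 3943, 4842 and 7215 in the duct, 3253, 4024 and 3876 in the s-shaped body and 2750.0, 2700.5 and 2735 in the renal vesicle. The renal vesicle was the low structure, with a log2 difference of -0.93 from the duct (SE 0.18, adjusted p = 0.0018), and the s-shaped body did not pass against either (-0.45, adjusted p = 0.075 against the duct and 0.48, adjusted p = 0.054 against the renal vesicle). Its 4 probe sets all had the renal vesicle below the duct without overlap. They disagreed over the s-shaped body, from -0.45 to 0.08 against the duct, and the difference from the renal vesicle passed with the next brightest (0.79, adjusted p = 0.0064). It also passed with only those 2 groups (adjusted p = 0.013) and without s-shaped body replicate 1, duct replicate 1 or duct replicate 3 (0.48 to 0.59, adjusted p 0.014 to 0.045). Against the duct, Aldoa passed without duct replicate 1 (-0.63, adjusted p = 0.013). Aldoa minus Aldoc within each array averaged 3.62 in the duct, 4.27 in the renal vesicle and 5.01 in the s-shaped body, which overlapped neither of the others. Tpi1 read 3935, 3717 and 3511 in the duct, 2247, 2619.8 and 1815 in the renal vesicle and 1669, 2034 and 2050.3 in the s-shaped body. It was -0.80 (SE 0.17, adjusted p = 0.003) and -0.95 (SE 0.17, adjusted p = 0.00071) from the duct, and its other 2 probe sets gave -0.91 to -0.69 and -1.02 to -0.99 in these comparisons.

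The energy-yielding steps that follow were less uniform. Pgam1, the phosphoglycerate mutase, read 1957, 1933 and 1901 in s-shaped body arrays, 3109.8, 3219 and 3177 in the renal vesicle and 3426, 3024 and 2469 in the duct. The s-shaped body was low and tightly grouped, -0.66 from the renal vesicle (SE 0.15, adjusted p = 0.0037) and -0.60 from the duct (SE 0.15, adjusted p = 0.0075), and renal vesicle and duct overlapped. Pkm, a pyruvate kinase gene, read 464, 421 and 416 in s-shaped body arrays, 594, 754 and 611 in the renal vesicle and 1254, 556 and 678 in the duct, where replicate 1 stood well above the others. It fell by 0.84 on the log2 scale in the s-shaped body against the duct (SE 0.24, adjusted p = 0.018), a call lost without s-shaped body replicate 2 or 3 (-0.81, adjusted p 0.058 to 0.06). The gap to the renal vesicle, -0.64, missed the threshold (adjusted p = 0.055) but passed when any 1 duct array was left out or with only those 2 groups (adjusted p 0.0072 to 0.046). Pgk1, the phosphoglycerate kinase, spanned 13293 to 26056 and passed nowhere with its brightest probe set (0.01 to 0.07 in size, all structures overlapping). Its other 2 probe sets were lower in the s-shaped body than in the renal vesicle without overlap (-0.80 and -0.42), and the brightest one is of the _x_at kind, which can match several transcripts. Gapdh was read from its control probe sets alone and was not tested. Its 3′ set read 11935, 11525 and 12224 in the renal vesicle, 6184, 6785 and 8258 in the s-shaped body and 8263, 9247 and 10072 in the duct. The s-shaped body lay below both others in every array. Shortened RNA raises the ratio of the 3′ to the 5′ set of this gene, which was 20.03 to 32.4 for s-shaped body arrays, 11.95 to 14.54 for renal vesicle arrays and 11.6 to 18.6 for duct arrays. The same ratio of Actb overlapped between the structures (30.06 to 50.9, 32.2 to 41.2 and 34.1 to 42.5), as did the ratio of the 3′ to the middle set of Gapdh (6.83 to 8.05, 6.66 to 7.67 and 4.92 to 7.92). The part of RNA length in the low s-shaped body values was not tested. Eno2, the neuronal enolase, was below the filter at 21.1 to 122.

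**Figure D2:**
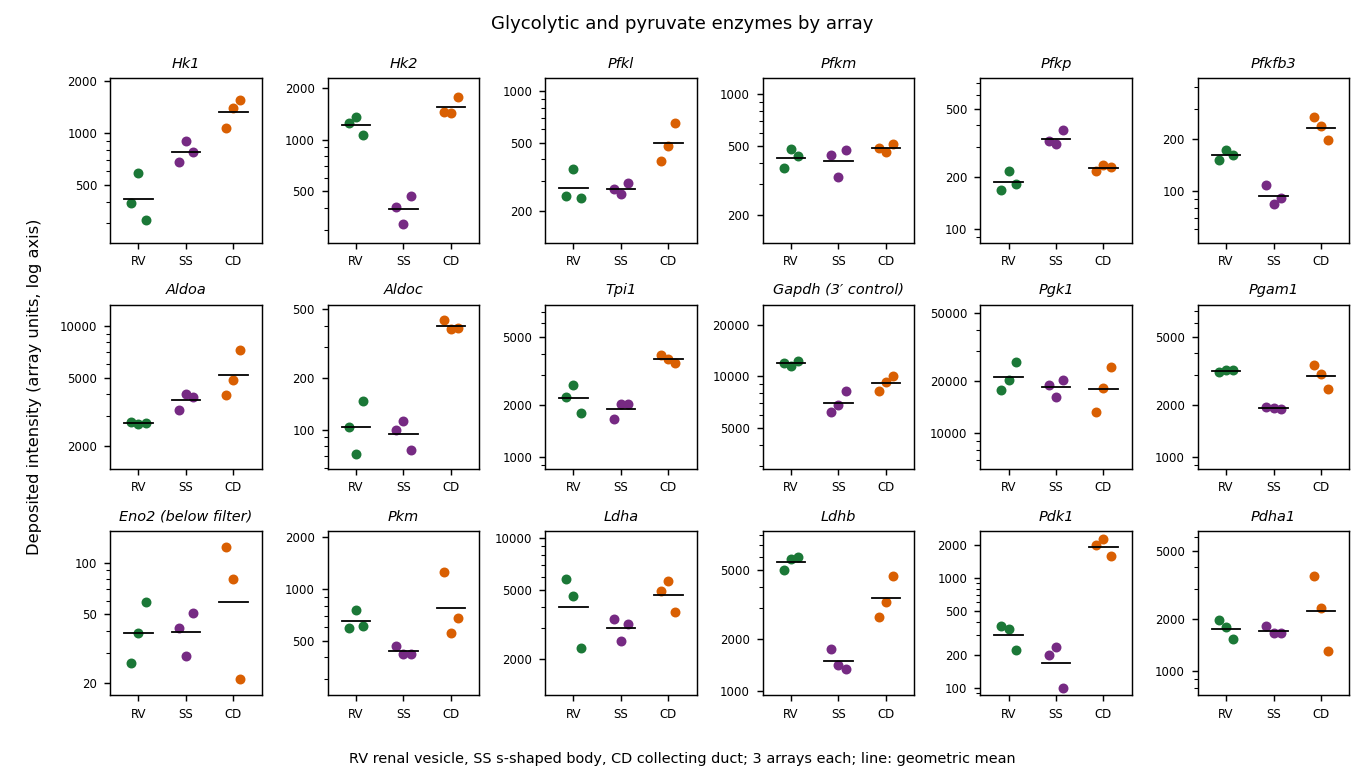
Deposited intensity of the 18 measured enzymes in each of the 9 arrays, on a log axis, with the geometric mean of each structure as a line. In Pdk1 and Aldoc the 3 duct arrays stand clear of all others, and in Hk2, Ldhb and Pgam1 the 3 s-shaped body arrays are the lowest.

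Among the enzymes tested, Pdk1 had the largest differences from the duct. It encodes a kinase that shuts off pyruvate dehydrogenase and is a classical HIF target. It read 1997, 2283 and 1572 in the duct, 368, 340.3 and 222 in the renal vesicle and 198, 236 and 99.3 in the s-shaped body. Every duct array was far above every nephron array, and the difference was 5.69-fold to the renal vesicle (-2.51, SE 0.28, adjusted p = 3.3e-05) and 10.5-fold to the s-shaped body (-3.39, SE 0.28, adjusted p = 1.5e-06). The other probe set gave -2.52 and -3.65. The step down from renal vesicle to s-shaped body (-0.89, adjusted p = 0.027) was less firm. It was lost without renal vesicle replicate 1 or 2 or s-shaped body replicate 3 (-0.82 to -0.55, adjusted p 0.086 to 0.12), with a pseudocount of 64 (-0.65, adjusted p = 0.051) and with no filter (adjusted p = 0.05). Pdha1, the dehydrogenase subunit that this kinase phosphorylates, read 3572, 2329 and 1316 in the duct, 1968, 1805 and 1531 in the renal vesicle and 1837, 1655 and 1666 in the s-shaped body. The duct arrays spread over those of both nephron stages and no comparison passed, whereas without duct replicate 3 both nephron stages were lower (-0.73 and -0.73, adjusted p = 0.011 and 0.0099). With the other probe set the vesicle was 0.07 from the duct (adjusted p = 0.84).

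Of the 2 lactate dehydrogenase genes, Ldhb passed in all 3 comparisons and Ldha in none. Ldhb, the heart-type subunit, read 5021, 5825 and 5941 in the renal vesicle, 2689, 3276 and 4635 in the duct and 1751, 1403 and 1329 in the s-shaped body. No 2 structures overlapped, and all 4 of its probe sets gave that order. The s-shaped body was 3.51-fold below the renal vesicle (-1.81, SE 0.20, adjusted p = 2.3e-05) and 2.26-fold below the duct (SE 0.20, adjusted p = 0.00054). The renal vesicle was 0.64 above the duct (SE 0.20, adjusted p = 0.027), a call lost without renal vesicle replicate 2 or 3 or duct replicate 1 or 2 (0.45 to 0.61, adjusted p 0.071 to 0.091). Ldha, the muscle-type subunit that favours lactate, read 5841, 4634 and 2310.4 in the renal vesicle, 3423, 2527 and 3202 in the s-shaped body and 4927, 5622 and 3752 in the duct. Renal vesicle replicate 3 was the dimmest of the 9 arrays, and no comparison passed. Without that array the s-shaped body was lower than the renal vesicle (-0.70, adjusted p = 0.026) and than the duct (-0.68, adjusted p = 0.019); it was also lower than the duct without duct replicate 3 (-0.87, adjusted p = 0.037) or with only those 2 groups (adjusted p = 0.029). Ldha minus Ldhb within each array ran from 0.83 to 1.26 for s-shaped bodies and from -1.26 to 0.19 for vesicles, with the duct (-0.29 to 1.01) across both. The 250 bases before the Ldha start hold 5 ACGTG matches, the most of any member for that core, and no GCGTG. They lie at 145, 144, 48, 47 and 34 bases, where the palindrome cacgtg at 145 and at 48 is counted on both strands. Those of Ldhb hold 1 GCGTG, at 126, and no ACGTG.

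The oxygen sensors took 3 different patterns. Egln3, a prolyl hydroxylase gene that HIF itself induces, read 107, 193 and 170.0 in the renal vesicle, 2086, 2205 and 2262 in the s-shaped body and 1562, 1395 and 1069 in the duct. The renal vesicle lay near its array medians, 7.05-fold below the duct (-2.82, SE 0.19, adjusted p = 5.5e-07) and 11.7-fold below the s-shaped body (3.54, SE 0.19, adjusted p = 2.1e-07), the largest difference of any member tested between the nephron stages. The s-shaped body was also 0.73 above the duct (SE 0.19, adjusted p = 0.012), but the other probe set gave 0.20 there (adjusted p = 0.62), with -2.25 and 2.45 in the comparisons with the renal vesicle. Egln1, the main hydroxylase of HIF, read 2713, 2749 and 2086 in the duct, 1700.3, 2048 and 2014 in the renal vesicle and 1396, 1464 and 1228 in the s-shaped body. The arrays fell into that order without overlap, and the s-shaped body was -0.87 from the duct (SE 0.16, adjusted p = 0.001) and -0.46 from the renal vesicle (SE 0.16, adjusted p = 0.042). The dimmer probe set of Egln1 did not call either (-0.48, adjusted p = 0.25, and -0.62, adjusted p = 0.13). The call against the renal vesicle was also lost without the intensity trend (adjusted p = 0.05) or without renal vesicle replicate 2 or 3, any 1 s-shaped body array or duct replicate 2 (-0.51 to -0.39, adjusted p 0.055 to 0.15). Renal vesicle against duct missed (-0.42, adjusted p = 0.066) and passed without duct replicate 3 (-0.52, adjusted p = 0.022), whereas the dimmer probe set had the opposite sign (0.14, adjusted p = 0.77). Egln2, the hydroxylase gene that hypoxia does not induce, read 1190.4, 1639.9 and 1617 in s-shaped body arrays, 1001, 945 and 1093 in the renal vesicle and 1314, 1197 and 1440.0 in the duct. The s-shaped body was 0.51 above the renal vesicle (adjusted p = 0.041), a call lost under median centring (0.38, adjusted p = 0.11) and without any 1 renal vesicle array, s-shaped body replicate 2 or 3 or duct replicate 2 (0.43 to 0.57, adjusted p 0.05 to 0.15). Egln1 minus Egln3 within each array was 3.15 to 3.51 in the renal vesicle, 0.80 to 1.00 in the duct and -0.88 to -0.58 in the s-shaped body.

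Of the HIF subunits, Epas1 passed in both comparisons of the s-shaped body and Hif1a in none. Hif1a read 6688, 6235 and 5765 in the renal vesicle, 6256, 4054 and 4379 in the s-shaped body and 4823, 6044 and 4534 in the duct. The 3 structures overlapped and no comparison passed (adjusted p 0.31 to 0.69). Hif1a protein is set largely by its destruction, which arrays do not read. Epas1 encodes the alpha subunit known from endothelium and interstitial cells, and read 331, 491 and 414 in s-shaped body arrays, 50.2, 67.4 and 89.5 in the renal vesicle and 95.8, 56.6 and 85.0 in the duct. Only the s-shaped body arrays exceeded their array median, and Epas1 passed the filter through them alone. They were 2.11 above the duct (SE 0.24, adjusted p = 2.2e-05) and 2.07 above the renal vesicle (SE 0.24, adjusted p = 4.1e-05); with no filter the adjusted p were 9.2e-05 and 0.00016. The size moved with the pseudocount, from 1.73 to 2.35 and from 1.84 to 2.30. Those arrays were also the ones with the bright podocyte, endothelial, interstitial, erythroid and macrophage lists given above, and the part of these cells in the Epas1 level was not tested. Hif1a minus Epas1 averaged 5.88 in the renal vesicle, 5.77 in the duct and 3.55 in the s-shaped body, a shift of -2.33 between the nephron stages without overlap. Epas1 lay below the array median in every duct array, as did all 8 endothelial markers, and in every renal vesicle array, as did 5 of the 8. Of the others, Cldn5 was bright in the vesicle (4449, 4178 and 9699.7). Epas1 in the vesicle was 0.04 from the duct (adjusted p = 0.92), and the part of endothelial cells in this was not tested. Arnt, the shared partner, and Vhl, the HIF recognition subunit, were below the filter and not tested. Arnt read 23.8, 41.8 and 33.1 in the renal vesicle, below every array of the s-shaped body (53.2, 55.2 and 71.1) and the duct (65.1, 57.3 and 74.4). Vhl read 96.4, 128 and 91.5 in the duct, 79.2, 52.1 and 76.7 in the renal vesicle and 61.3, 93.1 and 73.9 in the s-shaped body, and the vesicle and duct did not overlap as deposited but did after normalization.

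Among the hypoxia-responsive genes Bnip3 and Ddit4 were highest in the duct. Bnip3, a mitophagy receptor gene of the mitochondrial outer membrane, read 5898, 5269.8 and 3977 in the duct, 557, 1193 and 624 in the renal vesicle and 684, 347 and 287 in the s-shaped body. Every duct array was far above every nephron array, and the duct was 6.68-fold over the renal vesicle (-2.74, SE 0.34, adjusted p = 7.2e-05) and 12.6-fold over the s-shaped body (-3.65, SE 0.34, adjusted p = 3.7e-06). The nephron stages overlapped and missed the threshold (-0.91, adjusted p = 0.053); this difference passed under median centring (-0.98, adjusted p = 0.041) and without renal vesicle replicate 1, s-shaped body replicate 1 or duct replicate 1 or 3 (-1.28 to -0.91, adjusted p 0.012 to 0.048). Ddit4, an inhibitor of mTORC1 induced by hypoxia and other stress, read 1003, 2596 and 2208 in the duct, 865, 825 and 741 in the s-shaped body and 308, 504 and 367 in the renal vesicle. The structures did not overlap, and the falls against the duct were 4.24-fold (SE 0.32, adjusted p = 0.00033) and 2.22-fold (SE 0.32, adjusted p = 0.014). The s-shaped body call against the duct was lost without s-shaped body replicate 3 or duct replicate 2 (-1.09 to -0.88, adjusted p 0.051 to 0.069). The rise from renal vesicle to s-shaped body (0.93, adjusted p = 0.036) was lost with no filter (adjusted p = 0.063) and without renal vesicle replicate 1 or 3 or any 1 s-shaped body array (0.80 to 0.99, adjusted p 0.069 to 0.13). Higd1a, a mitochondrial respiratory-chain factor, read 2221, 2541 and 3063 in the duct, 2809, 1639 and 1692 in the renal vesicle and 1404, 1569.7 and 1509 in the s-shaped body. The s-shaped body was -0.76 from the duct (SE 0.22, adjusted p = 0.017), which was not called without s-shaped body replicate 1 (-0.71, adjusted p = 0.06). Renal vesicle replicate 1 lay inside the duct range, and without it the renal vesicle was lower than the duct as well (-0.64, adjusted p = 0.035). The immediate-early and heat-shock list was summed highest in the same duct arrays that hold the high Bnip3, Ddit4 and Pdk1 values. Of its 11 tested genes, 10 fell in vesicle against duct and 9 in s-shaped body against duct, where 15.9% and 15.9% of all genes did. Within the duct it summed to 69608, 85569.9 and 111723. Bnip3 and Pdk1 were lowest in the array where it was highest, and Ddit4 was lowest in the array where it was lowest. Its part in these differences was not tested.

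Ndrg1 and the untested Adm and Car9 were instead highest in the s-shaped body. Ndrg1, a stress-responsive gene of differentiating cells, read 1722, 1735 and 2003 in s-shaped body arrays, 215, 205 and 1049.6 in the renal vesicle and 465, 643 and 569 in the duct. Renal vesicle replicate 3 stood far above the other 2 vesicle arrays, and the same array was the brightest for podocyte markers, with Podxl at 3018 against 247 and 248. It also had the highest vesicle sums of the endothelial (10000 against 4861 and 4757), interstitial (2048 against 1228 and 1868) and immediate-early and heat-shock lists (56151 against 45149 and 48918). The part of any of these in its Ndrg1 level was not tested. The s-shaped body was 3.22-fold over the duct (1.69, SE 0.44, adjusted p = 0.011) and 4.55-fold over the renal vesicle (2.19, SE 0.44, adjusted p = 0.0022), which became 2.90 on the log2 scale without renal vesicle replicate 3 (adjusted p = 1.4e-06). The renal vesicle missed the threshold against the duct with all arrays (-0.50, adjusted p = 0.43) and was lower without replicate 3 (-1.21, adjusted p = 9e-04). Adm, the vasodilator adrenomedullin, was below the array median in every array, at 127, 103 and 119.8 in s-shaped body arrays, 63.6, 56.7 and 78.5 in the duct and 3.44, 2.86 and 8.91 in the renal vesicle. These values were not tested, and the 3 structures did not overlap. Car9, a carbonic anhydrase gene that is a standard marker of hypoxia, was also below the filter, at 109, 112 and 122 in s-shaped body arrays, 67.0, 61.8 and 31.0 in the renal vesicle and 63.9, 92.0 and 88.4 in the duct.

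**Figure D3:**
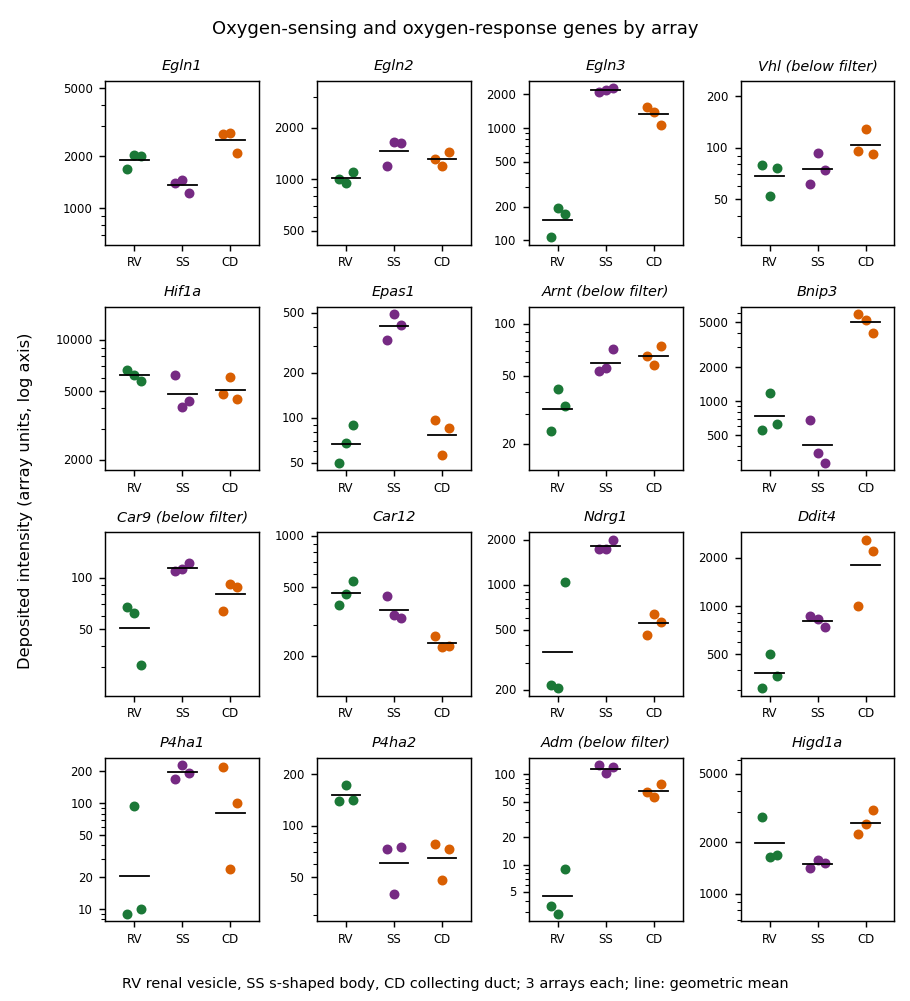
Deposited intensity of the 16 measured oxygen-response genes in each array, on a log axis, with the geometric mean of each structure as a line. Egln3 is low in the renal vesicle alone, Bnip3 high in the duct alone and Epas1 high in the s-shaped body alone, while Hif1a overlaps throughout.

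Of the hypoxia-responsive genes, Car12 and P4ha2 were highest in the renal vesicle by mean level. For Car12 the nephron stages overlapped and did not pass (s-shaped body minus vesicle -0.39, adjusted p = 0.12). Car12, a membrane carbonic anhydrase, read 396, 456 and 543 in the renal vesicle, 445, 346 and 331 in the s-shaped body and 260.4, 226 and 226 in the duct. Both nephron stages lay above every duct array, by 0.99 (SE 0.18, adjusted p = 0.0014) and 0.60 (SE 0.18, adjusted p = 0.025), the latter lost without s-shaped body replicate 1 or duct replicate 2 (0.46 to 0.57, adjusted p 0.077 to 0.11). P4ha2, an alpha subunit of collagen prolyl hydroxylase, read 139.6, 172 and 142 in the renal vesicle, 72.8, 40.1 and 75.3 in the s-shaped body and 77.8, 48.2 and 73.0 in the duct. Only the vesicle arrays exceeded their array median, and P4ha2 passed the filter through them alone. The vesicle minus duct difference was 1.14 (SE 0.25, adjusted p = 0.0047), and s-shaped body minus vesicle was -1.15 (SE 0.25, adjusted p = 0.0038); with no filter the adjusted p were 0.0062 and 0.0051. The size moved with the pseudocount, from 0.73 to 1.34 and from -1.35 to -0.77. P4ha1, the other alpha subunit, was dim and scattered, at 9.04, 94.8 and 10.1 in the renal vesicle, 171, 229.6 and 192 in the s-shaped body and 219, 24.1 and 100.3 in the duct. It exceeded its array median in 4 arrays, among them all those of the s-shaped body, and passed the filter through that structure. Only the rise from renal vesicle to s-shaped body passed (1.94, SE 0.57, adjusted p = 0.018), and not without renal vesicle replicate 1 or 3 or s-shaped body replicate 2 (1.64 to 1.83, adjusted p 0.062 to 0.076); it was 2.53 without renal vesicle replicate 2 (adjusted p = 0.0043). Within each array P4ha1 minus P4ha2 averaged -1.76 in the renal vesicle, 0.32 in the duct and 1.33 in the s-shaped body, and the nephron stages did not overlap. Its differences from the duct moved with single arrays. That of the s-shaped body was 1.00 (adjusted p = 0.21), 1.59 without duct replicate 1 (adjusted p = 0.041) and 0.38 without duct replicate 2 (adjusted p = 0.65). That of the renal vesicle was -0.94 (adjusted p = 0.24), -1.56 without duct replicate 2 (adjusted p = 0.049), -0.35 without duct replicate 1 (adjusted p = 0.65) and 0.67, of the opposite sign, with array weights (adjusted p = 0.18).

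**Figure D4:**
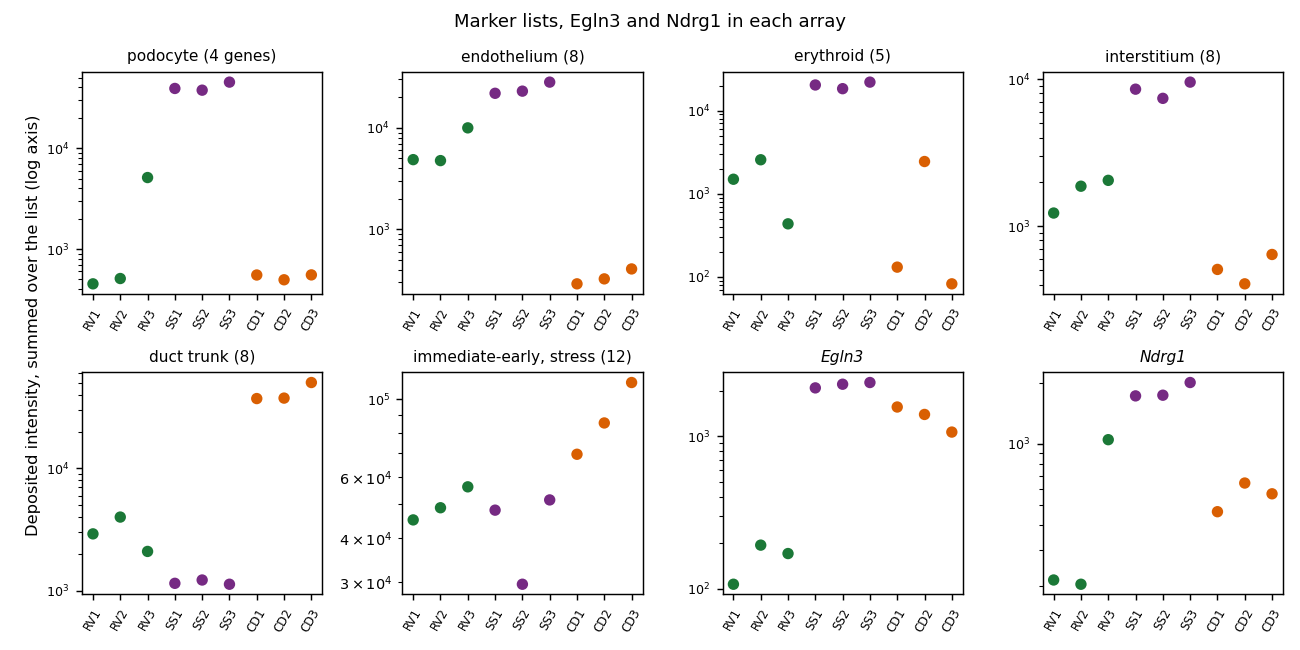
Deposited intensity by array, on a log axis, summed over the measured genes of 6 marker lists (number of genes in parentheses), with the single genes Egln3 and Ndrg1 in the last 2 panels. Renal vesicle replicate 3 stands above the other vesicle arrays in the podocyte, endothelium, interstitium and immediate-early and stress lists and in Ndrg1, but not in Egln3.

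Of 39 listed genes 5 were not analysed here. Gpi1, Eno1, Ankrd37 and Ero1l were found on no probe set with exactly 1 symbol, and Bnip3l only on probe sets annotated to several genes. Tested members that passed in none of the 3 comparisons were Pfkm, Pgk1, Ldha, Pdha1 and Hif1a. Of the 28 tested, 23 passed in at least 1 comparison and 5 in all 3 (Hk1, Ldhb, Pdk1, Egln3 and Ddit4). These are 82.1% and 17.9%, against 54.2% and 7.63% of all genes tested. The 23 include Aldoc, Epas1, P4ha1 and P4ha2, which passed the filter through the structure where each was brightest.

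Neighbouring pathways, from lists of textbook genes, are given for context, and every gene named from them passed in the comparison given. Of all genes tested, 31.5% were called in vesicle against duct, 32.8% in s-shaped body against duct and 36.3% between the nephron stages. Called transporters of glucose and lactate were 37.5%, 50% and 50% in that order. Of the 8 tested, 2 were higher and 1 lower in the renal vesicle than in the duct, and in s-shaped body against duct 1 was higher and 3 were lower. Slc16a1, a lactate and pyruvate carrier gene, was higher (log2 difference 1.59, SE 0.21) in the first comparison and lower (log2 difference -1.19, SE 0.21) in the other, and Slc2a3, a high-affinity glucose transporter gene, higher (log2 difference 1.89, SE 0.30) in the s-shaped body. Slc2a1, the transporter gene that HIF is known to induce, was lower than in the duct in both nephron stages. Its log2 difference was -0.71 (SE 0.24) in the renal vesicle and -1.09 (SE 0.24) in the s-shaped body. Slc2a2, the low-affinity transporter gene of liver and kidney tubule, was higher (log2 difference 2.63, SE 0.57) in the renal vesicle, and Slc16a7, another lactate carrier gene, was lower (log2 difference -2.74, SE 0.34) in the s-shaped body. Between the nephron stages 1 was higher and 3 were lower in the s-shaped body, with Slc16a1 at -2.77 (SE 0.21), Slc16a7 at -2.0 (SE 0.34) and Slc2a3 at 1.44 (SE 0.30).

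Called genes among 20 other oxygen-response genes tested were 25%, 70% and 65%, against 31.5%, 32.8% and 36.3% of all genes. Of the 20, 0 were higher and 5 lower in the renal vesicle than in the duct in limma (7 at an unadjusted p under 0.05, 1 of them higher), for s-shaped body against duct 6 were higher and 8 lower, and for s-shaped body against vesicle 10 were higher and 3 lower. Slc2a1 is also on the list of transporters above and was counted in both lists. Igfbp3, which encodes an IGF-binding protein, was higher in the s-shaped body, with a mean log2 level of 10.81 against 5.29 in the renal vesicle and 5.30 in the duct. Those 2 levels are near the floor that the pseudocount sets, so the size of this difference has no firm value, and the same holds for the dim Slc2a2 of the duct (5.69) and Slc16a7 of the s-shaped body (5.41). Ak4, a mitochondrial adenylate kinase gene, was lower in the s-shaped body alone, at -2.59 (SE 0.18) from the duct and -2.59 (SE 0.18) from the renal vesicle. Errfi1, a feedback inhibitor of the EGF receptor, was lower than in the duct in both, at -2.79 (SE 0.16) in the renal vesicle and -2.12 (SE 0.16) in the s-shaped body. Anxa2, an annexin gene, was lower (log2 difference -2.92, SE 0.26) in the renal vesicle against the duct and higher (log2 difference 3.46, SE 0.26) between the nephron stages. Hif3a, the third alpha subunit gene, was lower (log2 difference -2.03, SE 0.22) in the renal vesicle.

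The shares of all genes, 31.5%, 32.8% and 36.3% in the 3 comparisons, stand against 0%, 12.5% and 6.25% of the citric acid cycle genes, 16.7%, 8.33% and 33.3% of other glycolysis and pyruvate genes, 57.1%, 42.9% and 28.6% of pentose phosphate genes and 33.3%, 50% and 33.3% of glycogen genes, all lists of few genes. Of 16 citric acid cycle genes tested, 0 changed in the renal vesicle against the duct, 2 rose in the s-shaped body (Idh3g log2 difference 0.51, SE 0.16 and Idh3b log2 difference 0.60, SE 0.19, isocitrate dehydrogenase subunits) and 1 fell between the nephron stages (Aco1, log2 difference -0.81, SE 0.19). At an unadjusted p under 0.05, 2 of the 16 passed in limma, both higher, for the renal vesicle against the duct. Of 12 other glycolysis and pyruvate genes, 1 was higher and 1 lower in the renal vesicle than in the duct (Eno3, the muscle enolase, log2 difference 0.85, SE 0.19 and Pdk4, another pyruvate dehydrogenase kinase, log2 difference -1.54, SE 0.28), and 1 was lower in the s-shaped body (Dlat, log2 difference -0.57, SE 0.19). From vesicle to s-shaped body 2 rose and 2 fell, among them Pdk4 (log2 difference 1.18, SE 0.28), Eno3 (log2 difference -0.79, SE 0.19) and Pck2 (log2 difference 1.00, SE 0.28). Of 7 pentose phosphate genes, 2 rose and 2 fell in the renal vesicle against the duct, 2 rose and 1 fell in the s-shaped body, and 1 rose and 1 fell between the stages. H6pd, the enzyme of the endoplasmic reticulum, was -2.0 (SE 0.34), 1.36 (SE 0.34) and 3.36 (SE 0.34) in these comparisons. Rpia, the ribose phosphate isomerase, was 0.83 (SE 0.25) and 1.00 (SE 0.25) against the duct. Pgd was -0.41 (SE 0.13) in the renal vesicle, Taldo1, the transaldolase, -0.72 (SE 0.15) in the s-shaped body against the duct, and Tkt, the transketolase, -0.47 (SE 0.09) between the stages. Of 6 glycogen genes, 2 fell in the renal vesicle against the duct, 1 rose and 2 fell in the s-shaped body, and 1 rose and 1 fell between the stages, with the brain phosphorylase gene Pygb at -1.33 (SE 0.17) and -1.33 (SE 0.17) against the duct. The other glycogen genes with the smallest adjusted p were Pgm1 in the renal vesicle (log2 difference -0.77, SE 0.17), Pgm2 (log2 difference 0.86, SE 0.19) and Pygl (log2 difference -0.60, SE 0.21) in the s-shaped body against the duct, and Pygl (log2 difference -0.79, SE 0.21) and Pgm2 (log2 difference 0.56, SE 0.19) between the stages.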

How the data were processed

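Affymetrix mouse arrays of 9 samples were analysed, 3 per structure. The authors deposited 1 linear intensity per probe set, made with GCOS per the submitters' processing notes; its version and algorithm are not given in the sources used here. Of 22690 probe sets, 20380 that are not controls name 1 gene in the 2016 platform annotation and 691 name several and were not used. Values were transformed as log2(intensity + 26), the pseudocount being the 20th percentile of all values. Array medians then differed by 0.31, over the limit of 0.25, so arrays were quantile normalized. Probe sets above their own array's median in at least 3 arrays were kept (11597), and the brightest per gene gave 7998 genes, 2491 of which had several. The fit used limma 3.58.1 in R 4.3.3 (lmFit, eBayes with an intensity trend, 6 residual degrees of freedom) over all 9 arrays, with Benjamini-Hochberg adjustment within each comparison and no covariate. The script was tested on simulated data. Only 3 arrays per structure limit the precision. Members, lists and tests were chosen with earlier results of these data known, so no test was run on the lists themselves. Every member is named, with all array values where it changed or the structures did not overlap. Of the other pathways, up to 3 changed genes with the smallest adjusted p were named per list and comparison, and Slc2a1 was also given for the s-shaped body against the duct. Alternatives were the pseudocount, normalization, filter, probe set, trend, array weights, groups fitted, replicate block and left-out arrays.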

Additional observations from a re-analysis of the deposited data

How the results depend on the processing

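Of 84 member differences 46 passed, and 24 of these passed under all 21 alternatives. Another 6, of Aldoc, Epas1 and P4ha2, passed under all but the filter of 6 arrays, which left those genes out. Of the 38 others 19 passed under no alternative that gave a value, and no call changed direction. Oxygen-response calls in the renal vesicle against the duct went from 5 to 8 with array weights, a fit whose weights did not fully converge and which raised the calls among all genes from 31.5% to 59.4%. In the s-shaped body they went from 8 to 5 against the duct without renal vesicle replicate 3 and duct replicate 2 together, and against the renal vesicle from 8 to 5 in the same setting and to 5 of 9 tested when 6 arrays had to exceed the median. With each array left out in turn, the enzyme calls ranged from 5 to 7, 8 to 12 and 5 to 9 (vesicle against duct, s-shaped body against duct, then between nephron stages; 7, 11 and 7 with all arrays) and the oxygen-response calls from 5 to 6, 6 to 9 and 4 to 9 (5, 8 and 8). Same-numbered arrays deviated together weakly (correlations of -0.03 to 0.16, 5 of 9 over 0.1), so the numbers were not taken as pairing. With the replicate block the counts were 7, 11 and 8 enzymes and 5, 8 and 9 oxygen-response genes; the block ended 0 limma calls and added Aldoa and Bnip3 between the nephron stages. Median centring moved the median of all genes to 0.11 in vesicle against duct and to -0.11 between the nephron stages. The cause of these changes was not tested. With pseudocounts of 8 and 64 Epas1 was 2.35 and 1.73 above the duct in the s-shaped body.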
